A study of Mus musculus with 12 samples.

Results

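Whole cultures of mouse hepatocyte spheroids were compared 14 days and 1 day after the spheroids formed, to show which genes had been gained and which lost over the culture. The comparison rests on 8 of the 12 arrays, those of day 1 and day 14, with 4 preparations read at both days. Of 13081 probe sets, the 11889 that carry one gene symbol were used, and these gave 11861 genes. Both groups held the same 4 preparations of C57BL/6 cells, 2 male and 2 female, and no allele or agent is named for any of them. Each preparation was a frozen pool of hepatocytes from 3 mice that formed spheroids by itself in plates to which cells do not stick. Single mice therefore cannot be told apart, and the age of the animals is not given in the labels. The remaining 4 arrays, day 7 of the same preparations, entered the model as well, and their values are set beside those of the other days where they are given.

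Hepatocytes make most plasma proteins, burn and build fatty acids and carry out drug metabolism. Cells taken from the liver and kept flat on plastic lose much of this within days and take up features of a wounded epithelium, among them a stronger cytoskeleton, new keratins and new junction proteins. Spheroids keep contacts between cells on all sides and are used because they hold hepatocyte function for longer. A preparation of hepatocytes also carries some stellate cells, which make collagen, sinusoidal endothelial cells and Kupffer cells, the macrophages of the liver.

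Levels are deposited log2 values, so a difference of 1 is a 2-fold change. Array medians lay between 7.47 and 7.53, and a level under 4.79 is taken as near the background, since every probe set in the table reached at least that value on some array. Across genes, arrays of one day correlated at r = 0.966 to 0.99 and the day 1 and day 14 arrays of one preparation at 0.963 to 0.971, which describes the arrays only. Values by array are listed in the order male 1, male 2, female 1, female 2. A ± after a level is the SD over the 4 preparations (n = 4) and one after a change is the model's standard error. A gene passed, and is said to have risen or fallen, where its Benjamini-Hochberg adjusted p over all 11861 genes was under 0.05 in the limma fit with the preparation as a block. With so few arrays precision is limited, and the standard error of a change had a median of 0.092.

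Markers of hepatocytes stood at the top of the scale at both days. Albumin (Alb) had a mean of 12.73 ± 0.015 at day 1 and 12.74 ± 0.03 at day 14, the apolipoprotein gene Apoa1 12.59 ± 0.034 and 12.60 ± 0.043, and transthyretin (Ttr) 12.01 ± 0.11 and 12.09 ± 0.11. The mean of Serpina1a, the plasma antitrypsin gene, was 12.28 and 12.30. The transcription factor Hnf4a stood at 11.37 ± 0.064 and 11.22 ± 0.042 and the urea cycle gene Cps1 at 11.06 ± 0.11 and 10.94 ± 0.22. None of these 6 genes passed, with adjusted p-values of 0.077 for Hnf4a, 0.27 for Cps1, 0.35 for Ttr and above 0.8 for the others. The levels of Alb, Apoa1, Serpina1a and Ttr lay near the highest value in the table, 12.84, where a change may be understated. Serpina1a was chosen after its values were seen.

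Over the culture 990 genes rose and 799 fell, which is 8.35% and 6.74% of the genes tested. Many changes were small: 885 of the 1789 genes that passed moved by less than 0.5, and the median size was 0.515 for rises and 0.496 for falls. At least 2-fold changes were found for 169 rises (1.42%) and 149 falls (1.26%), and at least 4-fold changes for 24 and 27. All 4 preparations moved the same way for 1764 of the 1789 genes (98.6%), against 34.3% of all genes. The fit favours genes with like changes in all preparations, so the higher share follows largely from how these genes were picked. Leaving out one preparation lowered the number of rises to 568 without male 1, 440 without male 2, 622 without female 1 and 597 without female 2, and the number of falls to 404, 305, 521 and 449. A core of 337 rises and 234 falls passed whichever preparation was left out. The median change over all genes was 0.007.

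**Figure D1:**
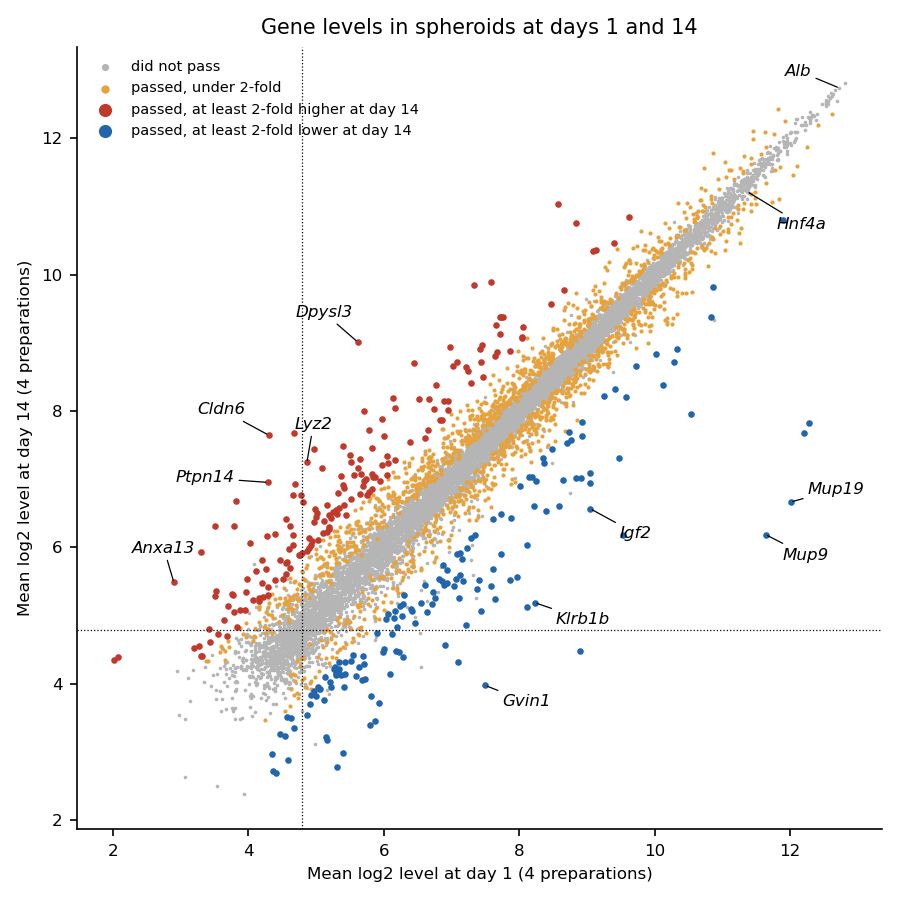
Mean log2 level of each of 11861 genes at day 1 (horizontal axis) and day 14 (vertical axis), each the mean of 4 preparations; dotted lines mark 4.79, taken as near the background. The 169 genes that rose and the 149 that fell at least 2-fold lie off the diagonal, with the major urinary protein genes Mup9 and Mup19 farthest below it and Dpysl3 far above it.

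The largest rise was that of Dpysl3, which encodes a cytoskeletal protein of growing nerve cells. Its levels were 6.59, 5.49, 4.91 and 5.47 at day 1 and 9.61, 9.27, 8.42 and 8.76 at day 14, a rise of 3.40 ± 0.14 (adjusted p = 2.6e-05). Every preparation gained at least 3.02, and the lowest value at day 14 lay well above the highest at day 1. Cldn6, a claudin of the tight junction that is known from embryonic epithelia, went from 5.20, 4.32, 4.21 and 3.46 to 7.24, 7.72, 8.12 and 7.52, a rise of 3.35 ± 0.31. Its relative Cldn7 went from 4.30, 3.33, 3.42 and 2.97 to 5.83, 6.80, 6.59 and 6.06, a rise of 2.81 ± 0.28. For both claudins male 1 started highest and gained least. Ptgs2, the inducible cyclooxygenase of prostaglandin synthesis, rose by 3.01 ± 0.18 from 5.38, 5.05, 4.25 and 4.01 to 7.90, 8.54, 7.31 and 6.96. Timp4, an inhibitor of metalloproteases, rose by 2.87 ± 0.33 from 4.25, 4.20, 3.39 and 3.41, all under 4.79, to 6.03, 6.56, 6.93 and 7.22. Ptpn14, a phosphatase that restrains the growth regulator YAP, rose by 2.67 ± 0.18, from 4.41, 4.38, 4.37 and 3.98 to 7.14, 6.80, 7.01 and 6.87. Its 4 preparations lay close together at day 14.

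Other large rises concerned genes of varied roles. Krt23, a keratin of stressed and ductal liver epithelium, rose by 2.54 ± 0.12 from 3.60, 4.18, 3.41 and 3.94 to 6.21, 6.52, 6.13 and 6.41. Anxa13, an annexin of intestine and kidney, rose by 2.59 ± 0.30 from 2.65, 3.42, 2.97 and 2.54 to 5.37, 6.13, 5.64 and 4.82. Slco3a1, an organic anion carrier, rose by 2.48 ± 0.22 and Clic6, a chloride channel gene, by 2.30 ± 0.32. Clic6 levels at day 1 were 6.59, 6.23, 4.70 and 5.29, lower in the females, while the preparations met at 7.97, 7.85, 8.23 and 7.96 by day 14. The cadherin gene Cdh13 rose by 2.11 ± 0.34, Dab1, an adaptor of the reelin receptor, by 2.25 ± 0.21, and Ano3, of the anoctamin membrane proteins, by 2.32 ± 0.17, with no value of Ano3 above 4.90. Vmn2r3, named as a pheromone receptor, rose by 2.64 ± 0.37, with day 14 levels spread from 4.05 in female 1 to 7.78 in male 1. The day 1 and day 14 levels of the 20 genes with the largest rises did not overlap, and all 20 passed with any one preparation left out. Of all 1789 genes that passed, 1268 did not overlap and 571 passed in all 4 such fits. The share without overlap was not counted over all genes. The 20 were chosen from genes that passed with the same sign in all 4 preparations, so neither trait is separate support.

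The proliferin genes, placental members of the prolactin family that stimulate vessel growth, rose together. Prl2c3 rose by 2.51 ± 0.36, Prl2c2 by 2.32 ± 0.35 and Prl2c5 by 2.27 ± 0.34. Prl2c3 levels were 7.98, 8.47, 6.61 and 6.29 at day 1 and 9.27, 10.36, 9.58 and 10.16 at day 14, so the females started lower and gained more. The 3 genes are near-identical copies side by side on chromosome 13, so probe sets may not tell them apart and their rises are not separate findings. Their measured neighbours Gpr137b-ps, Gpr137b and Nid1 rose as well, in a run of 6 genes with changes from 0.50 to 2.51. Serum amyloid A genes on chromosome 7, which encode acute phase apolipoproteins, formed a run of 4: Saa2 rose by 2.47 ± 0.22, from 8.42, 8.50, 8.21 and 9.19 to 11.04, 11.53, 10.22 and 11.39, and the others by 0.65 to 1.93.

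**Figure D2:**
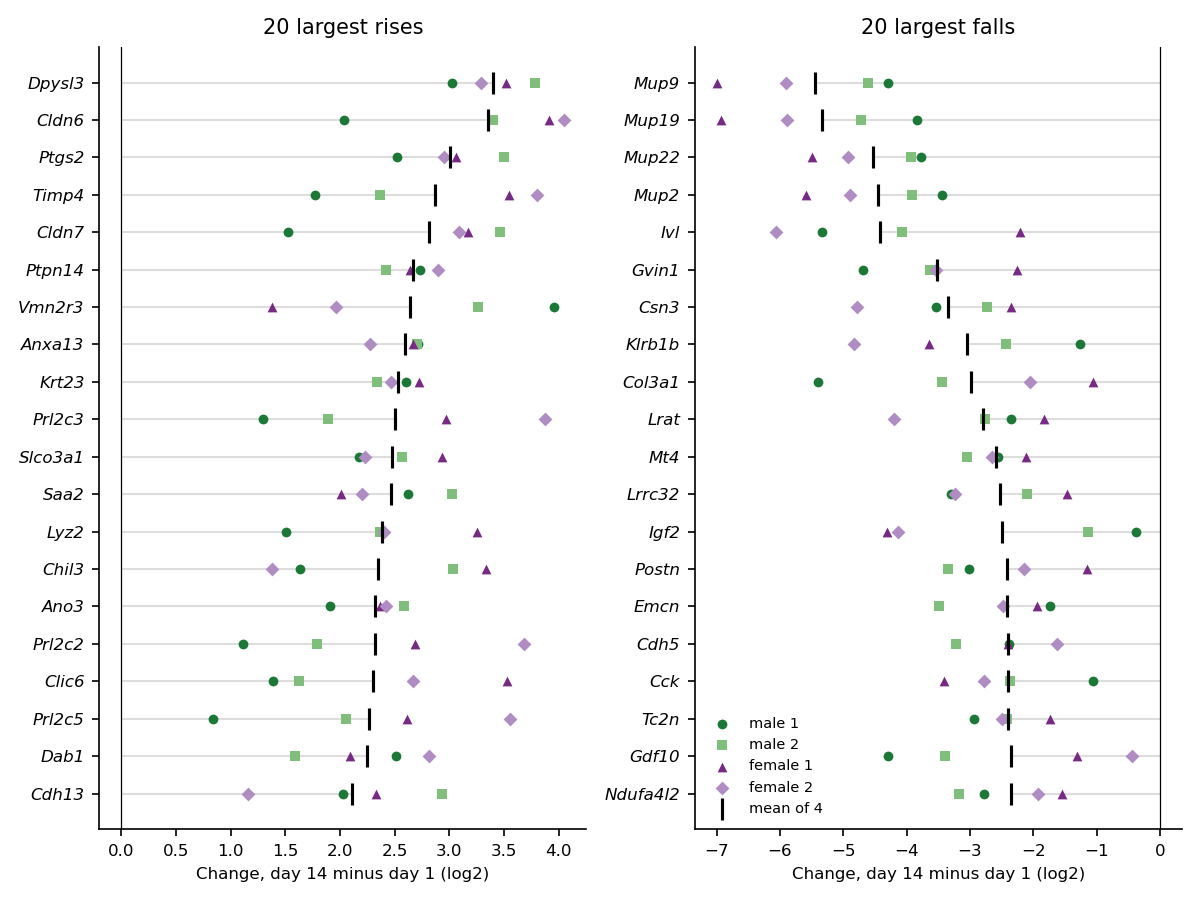
Change from day 1 to day 14 (log2) in each of 4 preparations for the 20 genes with the largest rises (left) and the 20 with the largest falls (right); the black bar is the mean. Mup9 fell by 7.00 in female 1 and by 4.29 in male 1, while the 4 changes of Krt23 lay between 2.34 and 2.72.

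Against a level of 4.79, 26 genes were gained: they lay under it on all 4 arrays of day 1 and at or above it on all 4 of day 14. Of these, 25 passed, and Gemin8, chosen after its values were seen, did not. The rule used the same values as the fit, so passing was likely for such genes and is not separate support. The 26 genes had a median change of 1.27, and the highest mean at day 14 was 6.96 ± 0.15, that of Ptpn14. Beside Ptpn14, Timp4, Cldn7, Krt23 and Anxa13 they included Krt19, the keratin of bile duct cells, which rose by 1.81 ± 0.20 from 4.76, 4.42, 3.90 and 4.50 to 5.89, 6.30, 6.47 and 6.15. Cdkn2a, a brake on the cell cycle that is known from senescent and cultured cells, rose by 1.79 ± 0.23 from 3.51, 3.48, 3.89 and 3.13 to 5.83, 5.32, 5.11 and 4.90. Msln, the mesothelial surface protein mesothelin, rose by 1.56 ± 0.06 from 3.78, 4.06, 4.35 and 3.74 to 5.36, 5.54, 5.96 and 5.31. Neurl3, a ubiquitin ligase, rose by 1.61 ± 0.16, Ptprm, a receptor phosphatase of cell contacts, by 1.55 ± 0.22, and Anxa8 by 1.27 ± 0.19. Cidec, a protein of the lipid droplet surface, rose by 1.54 ± 0.22, Mpp2, a scaffold protein gene, by 1.45 ± 0.18, and Acsl6, an acyl-CoA synthetase, by 1.17 ± 0.18. For 12 of the 26 genes the day 7 mean already lay at or above 4.79.

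The largest falls were those of the major urinary protein (Mup) genes, which encode pheromone carriers made by the liver under growth hormone and secreted into urine. Mup9 stood at 11.78, 11.77, 11.50 and 11.52 at day 1, among the highest values in the table, and at 7.48, 7.16, 4.51 and 5.61 at day 14. The fall was -5.45 ± 0.38 (adjusted p = 1.1e-04), or 43.8-fold. Mup19 changed by -5.34 ± 0.41, from 12.10, 12.05, 11.90 and 11.97 to 8.27, 7.34, 4.97 and 6.08, Mup22 by -4.52 ± 0.27 and Mup2 by -4.45 ± 0.30. In each of the 4 genes both female preparations ended below both male ones, although the 4 preparations started at nearly the same level. Day 1 values this near the highest in the table may understate the falls and any differences between the preparations at day 1. Not all of the family fell alike: Mup3 changed by -0.73 ± 0.12, Mup21 by -0.58 ± 0.14 and Mup20 by 0.47 ± 0.10, a rise. Mup6 changed by -0.47 ± 0.17 (adjusted p = 0.093). Mup3, Mup21 and Mup6 were chosen after their values were seen. Calls were lost for Mup21 without male 1 (adjusted p = 0.081), male 2 (0.072) or female 2 (0.11), and for Mup20 without male 2 (0.082), female 1 (0.092) or female 2 (0.089). Mup genes are close copies, so their probe sets may not tell them apart, and the like changes of several copies are not separate findings.

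To show how alike the copies are, the 100 bases before the start of 5 Mup genes are printed, 5′ to 3′, from RefSeq on GRCm38.p6. The capitals mark TATATAAG, a TATA-box-like run that both strands were searched for. It was present in the 250 bases before the start in 59 of 9644 measured genes with a promoter entry (0.612%). Mup22, Mup5 and Mup20 are named only.
Mup9 (chr4:60421953-60422052, minus strand): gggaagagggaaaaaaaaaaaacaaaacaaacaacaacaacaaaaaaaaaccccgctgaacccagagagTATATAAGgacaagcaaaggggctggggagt
Mup19 (chr4:61782225-61782324, minus strand): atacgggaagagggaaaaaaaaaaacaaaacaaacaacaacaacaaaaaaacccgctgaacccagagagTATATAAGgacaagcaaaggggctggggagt
Mup2 (chr4:60139857-60139956, minus strand): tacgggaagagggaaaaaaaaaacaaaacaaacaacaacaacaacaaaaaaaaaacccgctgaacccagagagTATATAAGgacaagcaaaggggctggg
Mup3 (chr4:62087318-62087417, minus strand): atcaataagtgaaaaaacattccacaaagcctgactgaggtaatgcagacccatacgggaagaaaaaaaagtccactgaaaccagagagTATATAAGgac
Mup21 (chr4:62150842-62150941, minus strand): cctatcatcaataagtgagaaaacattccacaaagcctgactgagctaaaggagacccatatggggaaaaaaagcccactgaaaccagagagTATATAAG
Aligned over the 250 bases before the start, Mup9 was 96.9% identical to Mup19 and 94.5% to Mup2, and Mup19 was 94.1% identical to Mup2, with gaps counted as differences. Against these 3 genes Mup3 was 56.0% to 58.4% identical and Mup21 52.7% to 54.7%, while Mup3 and Mup21 were 89.5% identical to each other. Most of the difference was gaps: Mup9 and Mup3 had 21 mismatches and 114 gapped positions. The annotated starts also lie at different distances from TATATAAG, so the windows do not cover quite the same stretch. A match of letters is a description and not evidence of what regulates these genes.

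Genes driven by growth hormone in the liver, the list to which the Mup genes belong, gave 13 falls and 2 rises among 27 measured genes, the rises being Mup20 and the complement gene C6, with a median change of -0.58 against 0.007 over all genes. Falls numbered 9, 8, 12 and 11 without male 1, male 2, female 1 and female 2. Igf1, the growth hormone-dependent growth factor of the liver, fell by 1.46 ± 0.20 from 10.64, 10.92, 10.87 and 10.92 to 9.53, 9.80, 9.55 and 8.63. The groups were far apart, and female 2 fell most. Among genes of insulin-like growth factor binding and fetal growth, 6 of 18 fell and 2 rose. With each preparation left out, in the same order, falls numbered 5, 2, 3 and 6 and rises 2, 3, 2 and 2. Igf2bp3, an RNA-binding protein of fetal tissue, rose by 1.11 ± 0.18 from 6.58, 6.39, 5.72 and 5.99 to 7.18, 7.25, 6.99 and 7.70.

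Igf2, the fetal growth factor, was the only gene to pass the test of whether the change differed between the sexes. With 2 pools of each sex, other genes that did not pass may differ as well. Levels at day 1 were 6.67, 7.40, 10.81 and 11.32, so both females stood more than 3 above both males, and levels at day 14 were 6.30, 6.27, 6.51 and 7.19. The changes were -0.37, -1.13, -4.30 and -4.13. The difference between the sexes in the change, male minus female, was 3.47 (adjusted p = 0.039), with 1 of 11861 genes passing this test (0.00843%) and 955 under an unadjusted p of 0.05. The mean change over the 4 preparations was -2.49 ± 0.62, and this call was lost without male 2 (adjusted p = 0.070), female 1 (0.13) or female 2 (0.14). Mest, another imprinted fetal gene, changed by -3.01, -3.31, -1.56 and -0.05 in the 4 preparations, with a mean of -1.98 ± 0.51, and lost its call without male 1 (adjusted p = 0.16), male 2 (0.17) or female 1 (0.088). The sex of the 2 male and 2 female pools cannot be told apart from other differences between the pools.

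Other large falls concerned genes of varied roles. Ivl, which encodes involucrin of the cornified envelope, fell from 8.80, 8.90, 8.48 and 9.42 to 3.47, 4.82, 6.28 and 3.36, by 4.42 ± 0.65. Sprr1a, another cornified envelope gene, fell by 2.10 ± 0.31 and Mt4, the metallothionein of stratified epithelia, by 2.59 ± 0.15 from 10.35, 10.69, 10.83 and 10.29 to 7.80, 7.64, 8.72 and 7.64. Csn3, a milk casein gene, fell by 3.35 ± 0.38 from 9.76, 9.55, 9.42 and 9.40 to 6.23, 6.82, 7.06 and 4.62, lowest in female 2. Cck, the hormone cholecystokinin, fell by 2.40 ± 0.32. Its day 1 levels were 6.43, 7.42, 8.70 and 8.03, higher in the females, and its day 14 levels were 5.38, 5.05, 5.29 and 5.25. Tc2n fell by 2.40 ± 0.24, and Atp6v0d2, a subunit of the proton pump of lysosomes and osteoclasts, by 2.15 ± 0.26. Klrb1b, a receptor of natural killer cells, fell by 3.04 ± 0.50 from 6.41, 7.88, 9.37 and 9.26 to 5.15, 5.46, 5.71 and 4.43. It was one of only 3 genes measured among 44 markers of lymphocytes and natural killer cells, and no other one passed.

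By the same level of 4.79, 24 genes were lost, of which 22 passed, with a median change of -1.13. Here too the rule used the same values as the fit, so the number that passed is not separate support. Gvin1, an interferon-inducible GTPase, fell from 8.12, 8.16, 6.82 and 6.91 to 3.43, 4.53, 4.57 and 3.38, by 3.52 ± 0.39, and had the highest day 1 mean of the 24. Rsad2, an antiviral enzyme, and Cep128, of the centrosome, met the rule but did not pass, and were chosen after their values were seen. Emcn, the endothelial surface protein endomucin, fell by 2.41 ± 0.28 from 4.84, 5.84, 5.35 and 5.54 to 3.10, 2.35, 3.41 and 3.08. Pcolce2, which aids collagen processing, fell by 1.98 ± 0.18 and Oit1 by 1.98 ± 0.17. Scg2, a protein of secretory granules, fell by 1.24 ± 0.13, Trpm1, a cation channel gene, by 1.19 ± 0.18, and Lrp2bp by 1.13 ± 0.19. Sult2a8, a sulfotransferase, fell by 1.92 ± 0.35, a call lost without male 2 (adjusted p = 0.072). Serpinb2, an inhibitor of plasminogen activators, fell by 1.29 ± 0.23, also lost without male 2 (0.072). The day 7 mean was already under 4.79 for 19 of the 24 lost genes.

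**Figure D3:**
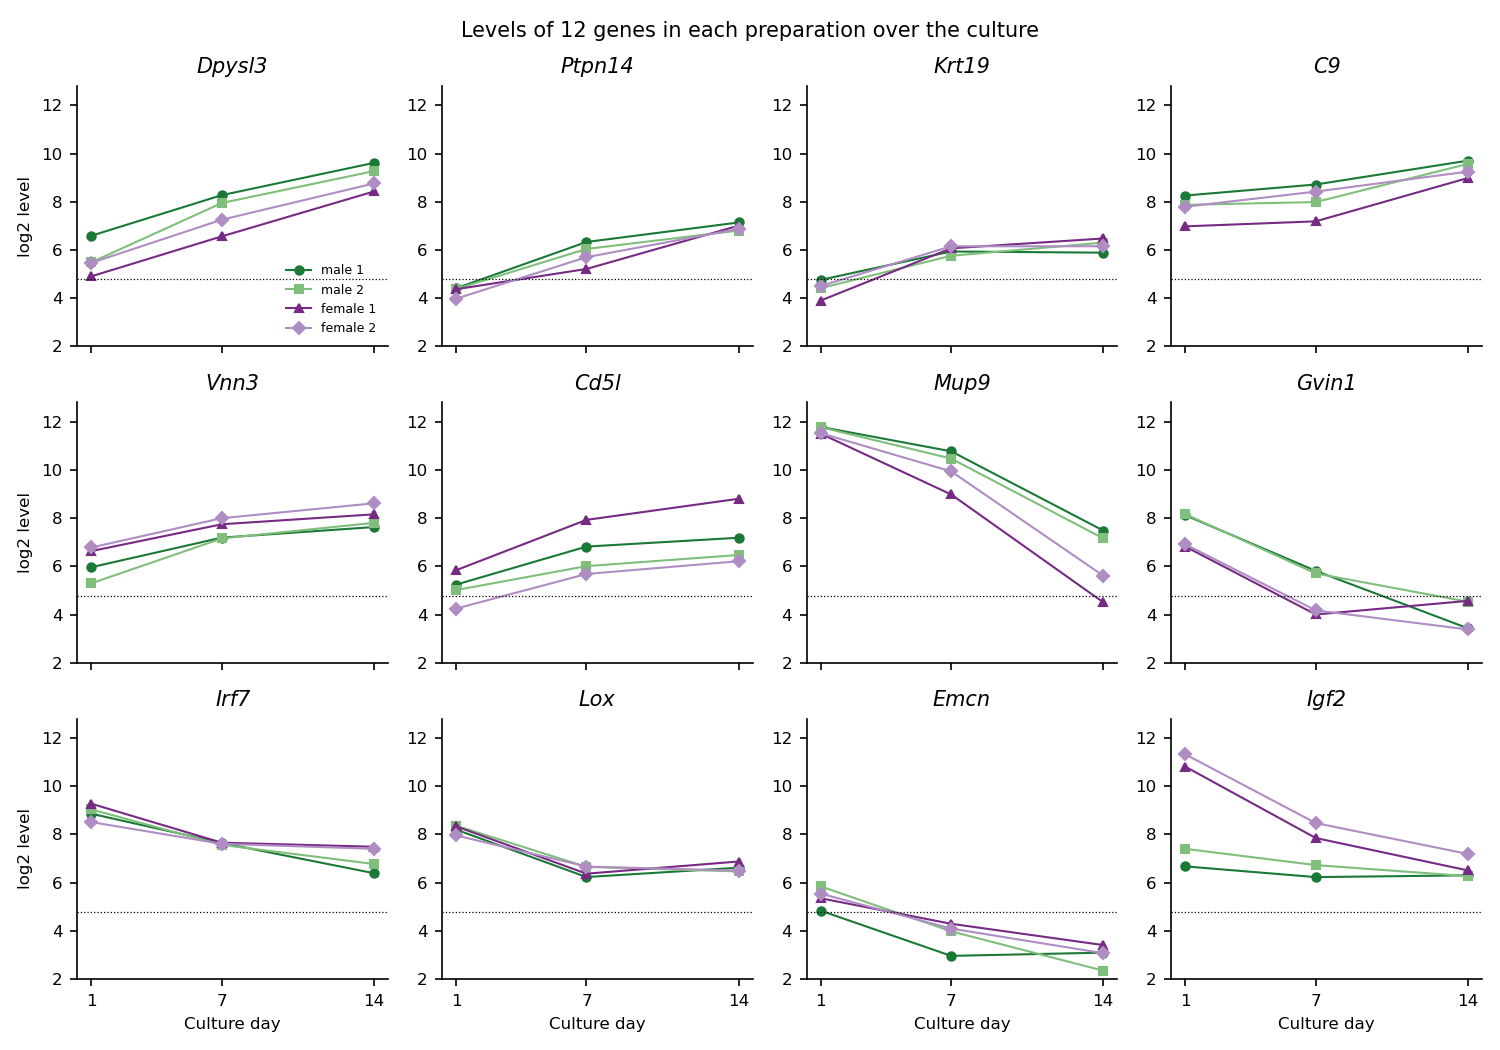
Log2 levels of 12 genes at culture days 1, 7 and 14 in each of 4 preparations, with a dotted line at 4.79. Krt19 and Gvin1 had made most of their change by day 7, Mup9 fell most between days 7 and 14, and Igf2 started more than 3 higher in the 2 female preparations.

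Day 7 means were set beside those of days 1 and 14. Of the 1789 genes that passed, 1535 had a day 7 mean between those of days 1 and 14. These genes were picked for a gap between days 1 and 14, so a day 7 mean inside that gap was likely. The share over all genes was not counted. For genes with at least 2-fold changes, the day 7 mean had covered a median of 59.8% of the rise and 57.4% of the fall, and 12 rises and 10 falls had gone further by day 7 than by day 14. Dpysl3 had means of 5.61, 7.51 and 9.02 at days 1, 7 and 14, and Krt19 had 4.40, 5.98 and 6.20. Mup9 had 10.04 at day 7, between 11.64 and 6.19, so most of its fall came in the second week. Lox, which cross-links collagen, had 6.48 at day 7, below its day 14 mean of 6.61. Day 7 shares the preparations and the model with the other days, so these values are set side by side without a test.

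Lists of genes with a shared role were counted next. Drug-metabolizing P450 genes gave 4 rises and 0 falls among 38 measured genes, but 4 and 4 without the block and 6 and 3 with a change for each sex. The limma fit called none of 16 bile acid synthesis genes. At an unadjusted p under 0.05, 9 P450 genes were higher and 5 lower, and 5 bile acid genes were higher and 2 lower. Plasma carriers and inhibitors gave 2 rises and 3 falls among 27, cholesterol synthesis genes 3 falls among 19, and genes of gluconeogenesis and glycogen 2 among 20. With male 1, male 2, female 1 and female 2 left out, falls numbered 3, 3, 3 and 3 for plasma carriers. They numbered 0, 2, 1 and 0 for cholesterol synthesis and 0, 0, 2 and 0 for gluconeogenesis. Shares near 8.35% for rises and 6.74% for falls are those of all genes. Within these lists Cyp2d26, a P450 of the drug-metabolizing families, rose by 0.61 ± 0.059, and Itih2, a plasma protein of the hyaluronan matrix, fell by 0.48 ± 0.057. Serpina1e, one of the antitrypsin copies, fell by 0.51 ± 0.082. Coagulation factors gave 3 falls among 16, led by F11, the factor XI gene, and 2, 1, 1 and 1 with each preparation left out. F11 fell by 1.37 ± 0.11 from 9.50, 9.57, 9.82 and 9.45 to 7.92, 8.23, 8.84 and 7.86, apart from the other coagulation genes, whose falls were under 0.31.

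Among complement components, 9 of 23 rose and 1 fell, Masp1 of the lectin pathway, with rises numbering 5, 5, 5 and 6 when male 1, male 2, female 1 and female 2 were left out, and 4 without the block. The call of Masp1 was lost without male 1 (adjusted p = 0.21), male 2 (0.20) or female 2 (0.15). C9, the pore-forming last component, rose by 1.65 ± 0.15 from 8.26, 7.87, 6.98 and 7.79 to 9.70, 9.57, 8.98 and 9.25, with no overlap. C6, another pore component, rose by 0.93 ± 0.22, from 10.46, 10.60, 7.84 and 8.88 to 10.71, 11.05, 9.56 and 10.19. At day 1 C6 was higher in both males and gained less there, and its call was lost without male 2 (adjusted p = 0.060), female 1 (0.092) or female 2 (0.12). The genes of C1q, which macrophages make, are described with the macrophage markers.

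Genes of fatty acid oxidation, many of them targets of the lipid-sensing receptor PPAR alpha, held 29 rises and 3 falls among 56 measured, or 51.8% and 5.36%. Rises numbered 22, 14, 18 and 20 with male 1, male 2, female 1 and female 2 left out, and the median change was 0.33. Vnn3 and Vnn1, pantetheinases that recycle vitamin B5, rose by 1.88 ± 0.14 and 1.62 ± 0.16. Vnn1 levels were 7.75, 7.54, 7.94 and 7.80 at day 1 and 8.94, 8.98, 9.88 and 9.70 at day 14. Acot1, a thioesterase of acyl-CoA, rose by 1.74 ± 0.12 from 5.61, 6.09, 5.13 and 5.24 to 7.40, 7.42, 7.03 and 7.15, and its neighbours Acot2, Acot4 and Acot3 on chromosome 12 rose with it, by 0.60 to 1.27. The call of Acot3 was lost without male 1 (adjusted p = 0.11), male 2 (0.089) or female 1 (0.053). Fabp4 and Cidea, a fatty acid carrier and a lipid droplet gene of fat cells, fell by 0.99 ± 0.15 and 0.86 ± 0.086. The receptor gene Ppara itself rose by 0.49 ± 0.11, a call lost without male 1 (adjusted p = 0.053), male 2 (0.068) or female 1 (0.066). In fatty acid synthesis, the desaturase genes Fads2 and Fads1 rose by 0.83 ± 0.095 and 0.61 ± 0.1, and Mlxipl, the carbohydrate-sensing factor of lipogenesis, fell by 0.80 ± 0.077 from 9.78, 10.10, 10.32 and 10.38 to 9.21, 9.26, 9.56 and 9.33.

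Enzymes that conjugate drugs and hormones gave 13 rises and 5 falls among 40, and rises numbered 7, 5, 6 and 9 when male 1, male 2, female 1 and female 2 were left out. Falls numbered 3, 0, 6 and 4 in the same order. At least 2-fold changes were found for 0 of the rises and 2 of the falls. The glutathione transferase genes Gstm4 and Gsta4 rose by 0.77 ± 0.082 and 0.77 ± 0.10. Efflux transporters moved in both directions, with 6 rises and 3 falls among 17, and rises numbering 3, 3, 3 and 4 with each preparation left out. Abcc4 and Abcc1, export pumps, rose by 1.10 ± 0.13 and 1.01 ± 0.17. Abcb1a, a P-glycoprotein gene, fell by 1.19 ± 0.12 from 8.61, 8.30, 9.25 and 8.88 to 7.05, 7.52, 7.88 and 7.86. Amino acid breakdown gave 12 rises and 8 falls among 47. With male 1, male 2, female 1 and female 2 left out, rises numbered 5, 3, 4 and 9 and falls 5, 5, 7 and 5, so the excess of rises did not hold without 3 of the 4. Haao of tryptophan breakdown rose by 1.05 ± 0.13 and Acmsd, a later enzyme of the same pathway, fell by 1.27 ± 0.18. Oat, a pericentral enzyme of ornithine metabolism, fell by 1.13 ± 0.077, with changes of -1.09, -1.35, -1.04 and -1.04 in the 4 preparations. Bhmt2, a methyltransferase of homocysteine, rose by 0.68 ± 0.073. In iron and metal handling, Bmp6, the signal for the iron hormone hepcidin, rose by 1.51 ± 0.08, and the metallothionein gene Mt3 fell by 1.18 ± 0.12.

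**Figure D4:**
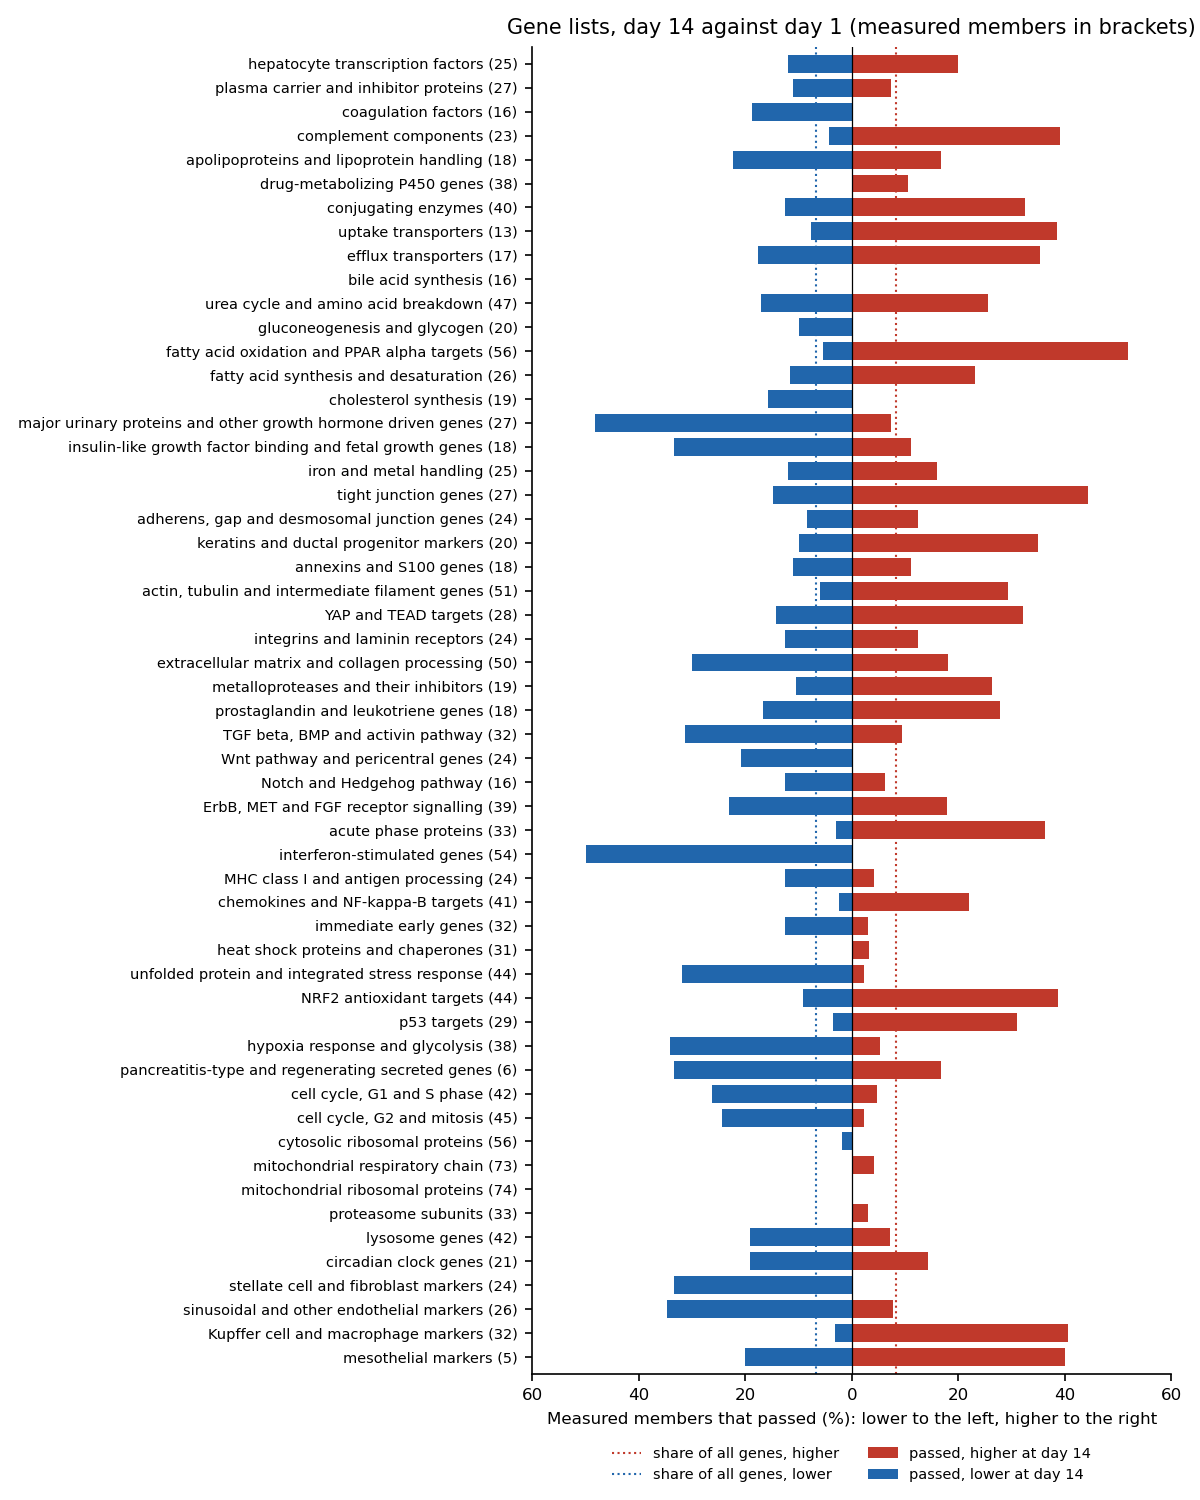
Share of the measured members of each list that rose (red, to the right) or fell (blue, to the left) between days 1 and 14, in percent; dotted lines mark the shares among all genes, 8.35% and 6.74%. Fatty acid oxidation genes had the highest share of rises, 51.8%, and interferon-stimulated genes the highest share of falls, 50%.

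More junction, keratin and cytoskeletal genes rose than fell. Tight junction genes gave 12 rises and 4 falls among 27, with rises numbering 7, 5, 7 and 5 when each preparation was left out in turn, in the order above. Beside the claudins, Ocln, which encodes occludin, rose by 0.76 ± 0.096 from 8.12, 8.16, 7.93 and 7.99 to 8.61, 8.82, 8.79 and 9.03. The falls held Cldn5, the claudin of endothelium, which fell by 1.18 ± 0.16, and Jam2, which fell by 1.70 ± 0.35 and lost its call without male 2 (adjusted p = 0.087). Keratins and ductal markers gave 7 rises and 2 falls among 20. Cdh6, a cadherin of kidney and bile duct, rose by 2.06 ± 0.19 from 7.28, 6.86, 5.34 and 5.08 to 8.65, 8.55, 7.87 and 7.73, so that the preparations came closer together. Epcam, the surface protein of ductal and progenitor cells, had means of 3.43 ± 0.25 at day 1 and 4.62 ± 0.36 at day 14, both near the background. Its rise of 1.19 ± 0.26 was lost without male 2 (adjusted p = 0.10), male 1 (0.056) or female 1 (0.098). Krt7, the other keratin of bile ducts, fell by 0.56 ± 0.11, lost without male 2 (0.052) or female 1 (0.056), so the ductal genes did not move as one.

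Actin, tubulin and intermediate filament genes gave 15 rises and 3 falls among 51, and rises numbered 13, 8, 10 and 11 with male 1, male 2, female 1 and female 2 left out. After Dpysl3, Map1b, a microtubule-binding protein, rose by 2.09 ± 0.19 from 6.15, 5.43, 5.31 and 4.72 to 7.77, 7.63, 7.28 and 7.28, and the tubulin gene Tubb2b by 1.61 ± 0.12 from 8.40, 8.02, 7.12 and 7.11 to 9.62, 9.41, 9.08 and 8.97. In both, the male preparations stood above the female ones at both days. Targets of YAP and TEAD, the regulators that respond to cell shape and contact, gave 9 rises and 4 falls among 28. Ptpn14 led them, and Tgfb2, a transforming growth factor, rose by 1.86 ± 0.11 from 5.03, 5.18, 4.75 and 4.26 to 7.14, 7.00, 6.36 and 6.17. Ccn2, the connective tissue growth factor that is a standard YAP target, fell by 0.90 ± 0.12 from 10.39, 10.40, 10.30 and 10.22 to 9.45, 9.63, 9.78 and 8.85, so the list held changes in both directions. Of the receptors for matrix, Itgb4, the integrin chain of hemidesmosomes, rose by 1.70 ± 0.18, Ddr1, a collagen receptor, by 1.20 ± 0.093, and Cd44, the hyaluronan receptor, by 0.68 ± 0.075.

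Matrix genes split into 2 directions, with 9 rises and 15 falls among 50 and a median change of -0.33. Falls numbered 8, 5, 15 and 9 with male 1, male 2, female 1 and female 2 left out. The falls held collagen genes and their enzymes. Col3a1, the fibrillar collagen III gene, went from 8.13, 8.19, 8.20 and 7.96 to 2.73, 4.74, 7.14 and 5.90, a change of -2.99 ± 0.57, lost without male 2 (adjusted p = 0.080). Postn, the matrix protein periostin, fell by 2.42 ± 0.30 and Lox by 1.60 ± 0.14, the latter from 8.20, 8.36, 8.34 and 7.96 to 6.62, 6.47, 6.88 and 6.50. The rises held other matrix genes: Lamb2, a laminin chain, rose by 1.21 ± 0.094 from 5.96, 5.57, 5.54 and 5.72 to 6.94, 6.82, 6.97 and 6.88, and Vcan, the proteoglycan versican, by 1.64 ± 0.17. Among the metalloproteases, Mep1a, which encodes meprin, rose by 2.04 ± 0.26, and Adam12 fell by 1.93 ± 0.17 from 7.86, 7.53, 7.54 and 7.54 to 5.44, 5.62, 5.90 and 5.78. In the TGF beta and BMP list, 10 of 32 fell and 3 rose. The ligand gene Bmp4 rose by 1.29 ± 0.12, while Id3, a target of BMP signalling, fell by 1.55 ± 0.25. Falls in this list numbered 4, 2, 5 and 4 with each preparation left out, in the same order.

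Markers of stellate cells and endothelium moved with the collagen falls, and by amounts that differed between preparations. Of 24 stellate and fibroblast markers, 8 fell and 0 rose, with a median change of -1.12; the medians in male 1, male 2, female 1 and female 2 were -1.92, -1.46, -0.20 and -0.47. Falls numbered 7, 4, 8 and 6 when these were left out in turn. The matrix list holds 5 of the same genes, Col1a1, Col1a2, Col3a1, Dcn and Lum. The mean level of the list ranged from 6.45 to 6.64 over the preparations at day 1 and from 4.46 to 6.40 at day 14, and the means of 2 markers lay under 4.79 at day 1 and of 6 at day 14. Lrat, the enzyme that esterifies vitamin A for storage, fell by 2.79 ± 0.37 from 6.89, 6.51, 7.04 and 7.98 to 4.53, 3.76, 5.21 and 3.77. Dcn and Lum, matrix proteoglycans of fibroblasts, did not pass. The 4 changes were -3.65, -1.89, -0.28 and -0.34 for Dcn and -4.45, -0.76, 0.73 and 1.46 for Lum, so the preparations differed widely, male 1 most of all, and both genes were chosen after their values were seen. In whole cultures fewer cells of a type and less RNA per cell cannot be told apart, and the part of either in the collagen falls was not tested.

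Of 26 endothelial markers, 9 fell and 2 rose, with a median of -0.61 and medians of -0.94, -1.15, -0.22 and -0.60 by preparation. Falls numbered 6, 7, 11 and 6 and rises 2, 1, 1 and 1 with each preparation left out. Cdh5, the cadherin of endothelial junctions, fell by 2.40 ± 0.31 from 4.66, 5.92, 6.44 and 6.16 to 2.29, 2.71, 4.05 and 4.54. At day 14 the mean of 11 of the 26 markers lay under 4.79, against 2 at day 1. The mean level of the list ranged from 6.06 to 6.45 at day 1 and from 4.85 to 6.15 at day 14. Eng, which encodes the TGF beta coreceptor endoglin, went from 8.37, 8.25, 8.51 and 8.43 to 4.44, 5.80, 8.10 and 7.77. Its change of -1.86 ± 0.53 lost its call with any one preparation left out (adjusted p from 0.052 to 0.19).

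Macrophage markers went the other way. Of 32 markers, 13 rose and 1 fell, the iron exporter gene Slc40a1, with a median of 0.70 and medians by preparation of 0.55, 0.41, 1.64 and 0.19. Rises numbered 9, 11, 10 and 12 with each preparation left out. Lyz2, the lysozyme of macrophages, rose by 2.38 ± 0.28 from 5.73, 4.29, 5.69 and 3.74 to 7.24, 6.66, 8.94 and 6.14. Cd5l, a secreted protein of Kupffer cells, rose by 2.08 ± 0.20 from 5.24, 5.01, 5.84 and 4.25 to 7.18, 6.47, 8.80 and 6.21, and the protease gene Ctss by 1.46 ± 0.16. The C1q genes C1qb and C1qc rose by 0.98 ± 0.20 and 1.11 ± 0.26, calls lost without male 1 (adjusted p = 0.063 and 0.12) and, for C1qc, female 1 (0.088). In all 5 of these genes female 1 was highest at day 14. Without the preparation as a block only 3 of the markers rose, and the adjusted p was 0.060 for Lyz2, 0.075 for Cd5l and 0.15 for Ctss. The mean level of the list ranged from 4.86 to 5.57 at day 1 and from 5.12 to 6.96 at day 14. Clec4f, the defining lectin of Kupffer cells, chosen after its values were seen, stood near the background at both days (4.64 ± 0.47 and 4.56 ± 0.69) and did not pass. The means of 15 markers lay under 4.79 at day 1 and of 10 at day 14. The complement list holds 3 of the same genes, those of C1q. Erythroid, neutrophil and platelet markers were measured for 4 of 27 genes, none of which passed, and of 5 measured mesothelial markers 2 rose, Msln and Krt19, and 1 fell.

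**Figure D5:**
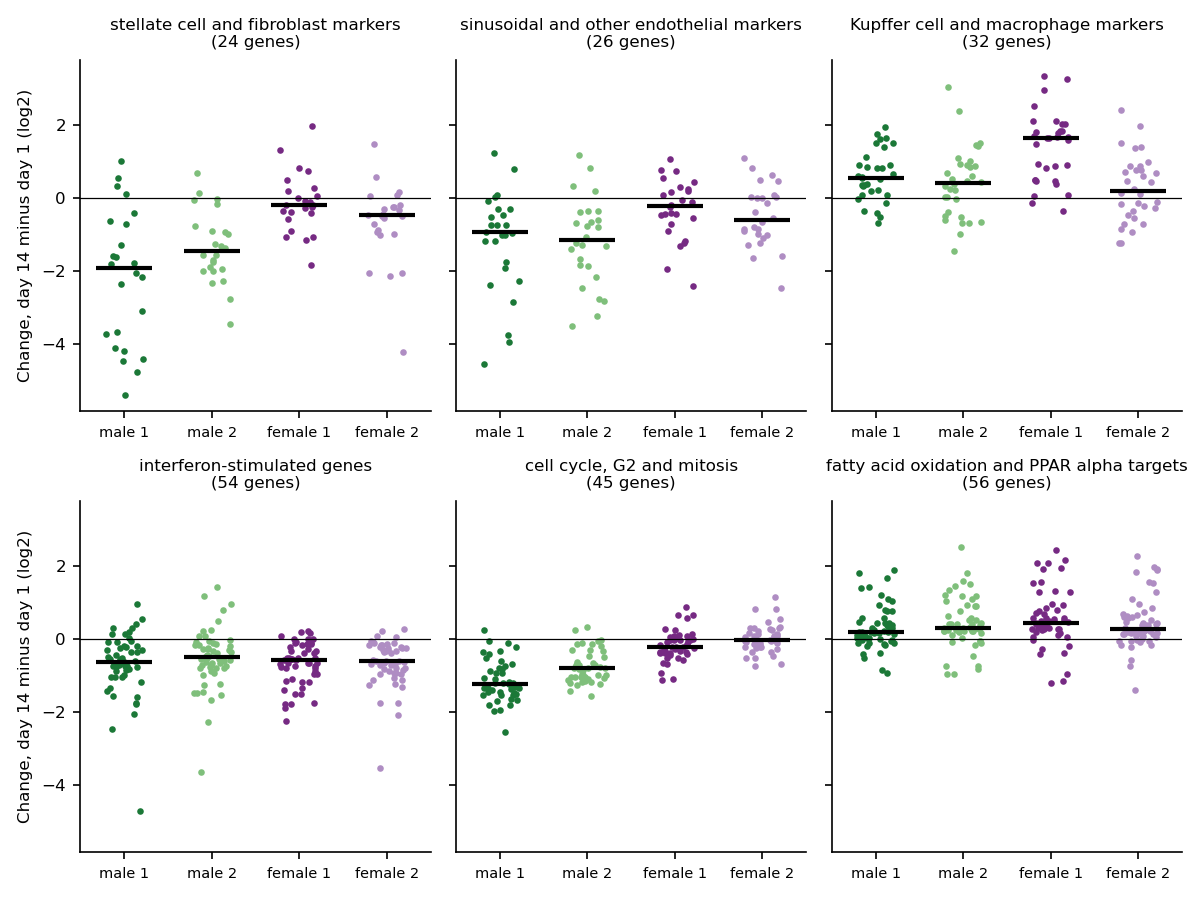
Change from day 1 to day 14 (log2) of every measured member of 6 lists in each of 4 preparations, with the median as a bar. Stellate markers fell more in the 2 male preparations (medians -1.92 and -1.46) than in the 2 female ones (-0.20 and -0.47), while the medians of the interferon-stimulated genes were alike, from -0.63 to -0.50.

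Interferon-stimulated genes, which cells switch on against viruses, were the list with the most falls: 27 of 54 fell (50%) and 0 rose in the limma fit, with 1 gene higher at an unadjusted p under 0.05. In all, 50 of the 54 lay lower on average at day 14. The median change was -0.56, with medians by preparation of -0.63, -0.50, -0.58 and -0.61, and 20, 19, 26 and 23 fell without male 1, male 2, female 1 and female 2. After Gvin1, Irf7, the transcription factor that amplifies the response, fell by 1.91 ± 0.21 from 8.86, 9.04, 9.27 and 8.51 to 6.39, 6.77, 7.49 and 7.40. Oasl2, of the oligoadenylate synthetase family, fell by 1.61 ± 0.25 from 5.42, 5.50, 5.65 and 6.12 to 3.35, 3.83, 5.01 and 4.04. Isg15, a ubiquitin-like modifier, fell by 1.49 ± 0.18 from 5.92, 6.08, 6.17 and 5.80 to 4.34, 4.61, 4.40 and 4.67. Apol9a, an apolipoprotein L gene that interferon induces, fell by 1.81 ± 0.14, with changes of -1.66, -2.11, -1.84 and -1.64. The day groups of these genes did not overlap, as was so for 1268 of the 1789 genes that passed. That share was not counted over all genes, and the lack of overlap is not separate support. Gbp3, Gbp7 and Gbp2, guanylate-binding proteins, lay in a run of 4 neighbours on chromosome 3 that fell. The call of Gbp2 was lost without male 1 (adjusted p = 0.11), female 1 (0.074) or female 2 (0.095). MHC class I genes, which interferon also raises, gave 1 rise and 3 falls among 24, with a median of -0.057. With each preparation left out, rises numbered 0, 0, 0 and 0 and falls 0, 0, 0 and 1, so these calls did not last.

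To show the sequence that interferon factors are known to bind, the 150 bases before the start are printed for 4 genes that fell. They are given 5′ to 3′, from RefSeq on GRCm38.p6. Their falls were the largest among interferon-stimulated genes that hold it before the first listed start, with the genes of a single chromosome left out. The capitals mark GAAA, any 2 bases and GAAA, the core of the interferon-stimulated response element, on either strand, where overlapping matches run together.
Isg15 (chr4:156200819-156200968, minus strand): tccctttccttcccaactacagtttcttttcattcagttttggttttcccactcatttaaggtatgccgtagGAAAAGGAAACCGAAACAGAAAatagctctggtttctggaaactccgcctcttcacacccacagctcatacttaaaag
Gbp3 (chr3:142559894-142560043, plus strand): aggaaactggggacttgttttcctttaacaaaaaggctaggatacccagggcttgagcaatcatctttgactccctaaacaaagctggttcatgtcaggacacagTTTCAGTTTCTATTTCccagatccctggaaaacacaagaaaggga
Tgtp2 (chr11:49064213-49064362, minus strand): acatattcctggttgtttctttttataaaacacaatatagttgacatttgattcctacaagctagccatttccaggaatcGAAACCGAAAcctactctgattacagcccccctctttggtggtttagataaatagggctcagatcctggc
Trim30a (chr7:104465194-104465343, minus strand): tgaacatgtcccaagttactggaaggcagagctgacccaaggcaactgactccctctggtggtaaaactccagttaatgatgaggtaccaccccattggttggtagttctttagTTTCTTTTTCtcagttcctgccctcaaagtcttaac
The motif lay in the 250 bases before the start of 302 of 9644 genes (3.13%). Of the interferon-stimulated genes that fell and had an entry it lay in 11 of 20 (55.0%), and of those that did not pass in 8 of 20 (40%). A match does not show a bound factor. Gbp3, a GTPase like Gvin1, fell by 1.45 ± 0.23. Tgtp2, a GTPase of the same response, fell by 1.12 ± 0.20, lost without male 2 (adjusted p = 0.063). Trim30a, a regulator of the response, fell by 1.00 ± 0.22, lost without male 1 (0.074), male 2 (0.062) or female 2 (0.097). These 3 were chosen after their values were seen.

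More inflammatory genes rose than fell. Acute phase proteins gave 12 rises and 1 fall, the protease inhibitor gene A2m, among 33, with rises numbering 8, 8, 10 and 9 with each preparation left out. The call of A2m was lost without male 2 (adjusted p = 0.12), female 1 (0.073) or female 2 (0.096). Saa1 rose by 1.93 ± 0.18 from 8.65, 8.91, 8.55 and 9.21 to 10.76, 11.04, 10.26 and 10.99 and Saa3 by 1.66 ± 0.16. Chemokines and NF-kappa-B targets gave 9 rises and 1 fall, Tnfaip2, among 41, with rises numbering 6, 7, 6 and 7. The call of Tnfaip2 was lost without male 2 (adjusted p = 0.069) or female 2 (0.056). Cxcl13, a chemokine that draws B cells, rose by 1.26 ± 0.064 from 6.47, 5.74, 5.83 and 4.92 to 7.69, 7.08, 7.20 and 6.04. The ranges of the days overlapped, but each preparation gained a like amount. Tnfaip3, the brake on NF-kappa-B known as A20, rose by 0.95 ± 0.10, and Cxcl16, a membrane-bound chemokine, by 0.87 ± 0.10. In prostaglandin metabolism, Cbr3 rose by 1.18 ± 0.11 beside Ptgs2, and Ptges, the prostaglandin E synthase, fell by 1.40 ± 0.23 from 5.40, 5.61, 7.19 and 6.30 to 3.85, 4.40, 6.59 and 4.06. Female 1 was highest at both days, so the ranges overlapped, and the adjusted p was 0.13 without the block. Spink1, a trypsin inhibitor that also rises in acute phase reactions, rose by 1.92 ± 0.11 from 6.27, 5.97, 5.70 and 5.94 to 8.49, 7.93, 7.62 and 7.51.

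Stress programmes moved in different directions. Hypoxia response and glycolysis genes gave 2 rises and 13 falls among 38, with falls numbering 8, 6, 10 and 10 with each preparation left out and a median of -0.19. Ankrd37 fell by 1.52 ± 0.25, Adm, the vessel-widening peptide adrenomedullin, by 1.51 ± 0.20 from 7.09, 6.87, 7.30 and 7.21 to 5.23, 5.12, 6.13 and 5.93, and Slc16a3, a lactate exporter, by 1.30 ± 0.15. Ndufa4l2, a hypoxia-induced gene related to a respiratory chain subunit, fell by 2.35 ± 0.27. The lists of unfolded protein and integrated stress response genes together gave 1 rise and 14 falls among 44, with falls numbering 7, 5, 7 and 6. Derl3, which helps clear misfolded proteins, fell by 1.45 ± 0.31, lost without male 1 (adjusted p = 0.093) or male 2 (0.10). The one rise was Slc7a11, the cystine carrier, at 0.67 ± 0.1. Targets of the antioxidant factor NRF2, to which Slc7a11 also belongs, gave 17 rises and 4 falls among 44, with rises numbering 11, 7, 9 and 10. Akr1c19, an aldo-keto reductase, rose by 1.29 ± 0.15, and Osgin1, an oxidative stress-induced growth inhibitor, fell by 0.67 ± 0.079 from 11.04 ± 0.028 to 10.37 ± 0.12. Targets of p53 gave 9 rises and 1 fall, the kinase gene Plk3, among 29, with rises numbering 8, 5, 4 and 4. The call of Plk3 was lost without male 2 (adjusted p = 0.059), female 1 (0.058) or female 2 (0.053). Pmaip1, the cell death gene Noxa, rose by 1.28 ± 0.17 from 5.91, 5.76, 5.31 and 5.83 to 7.33, 7.34, 6.61 and 6.65 and Psrc1 by 1.00 ± 0.13.

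Genes of G1 and S phase gave 2 rises and 11 falls among 42, and genes of G2 and mitosis 1 rise, Stmn1, and 11 falls among 45. The medians by preparation were -0.44, -0.27, -0.33 and -0.07 for the first list and -1.23, -0.79, -0.23 and -0.04 for the second. In the second list the 2 male medians lay below the 2 female ones, and in the first they did not. The second list's falls numbered 2, 1, 8 and 8 with male 1, male 2, female 1 and female 2 left out. They numbered 25 without the block and 23 with the block and a change for each sex. Both of those fits let the sexes differ in their change. The call of Stmn1 was lost without male 2 (adjusted p = 0.056), female 1 (0.081) or female 2 (0.10). Falls in the first list numbered 3, 4, 4 and 11. Rrm2, which supplies nucleotides for DNA synthesis, fell by 1.10 ± 0.11 from 9.11, 9.01, 9.83 and 9.71 to 7.71, 7.65, 8.91 and 9.02, so that the ranges just met while each preparation fell. Ccna2, the S phase and mitotic cyclin, changed by -1.96, -1.20, -0.17 and -0.48, and its mean of -0.95 ± 0.24 lost its call without male 1 (adjusted p = 0.095), male 2 (0.16) or female 2 (0.071). Ccnd2, a cyclin of G1, rose by 1.21 ± 0.095 from 7.67 ± 0.48 to 8.87 ± 0.33.

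Several housekeeping lists had fewer calls than all genes. None of 74 mitochondrial ribosomal proteins passed in the limma fit, with 9 higher and 0 lower at an unadjusted p under 0.05, and 1 of 56 cytosolic ribosomal proteins fell, Rpsa. The respiratory chain gave 3 rises, Ndufa4, Ndufa9 and Sdhb, among 73, the proteasome 1, Psma6, among 33, and heat shock proteins 1, Hspb1, among 31. All 6 changes were of 0.33 or less, and none of the 6 passed with every preparation left out in turn. The median changes were 0.066, -0.0087, 0.07, -0.02 and 0.025 for the 5 lists in the order named.

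Some of the remaining lists had larger shares of calls than the 8.35% and 6.74% of all genes. Uptake transporters had 38.5% rises, and growth factor receptor genes 18% rises and 23.1% falls. Many calls in the remaining lists were lost with 1 preparation left out. In the order male 1, male 2, female 1 and female 2, hepatocyte transcription factors then gave 2, 1, 1 and 3 rises with 1, 1, 2 and 3 falls. Apolipoproteins gave 0, 0, 3 and 2 rises with 1, 1, 4 and 1 falls. Clock genes gave 0, 0, 1 and 2 rises with 1, 2, 2 and 0 falls. Growth factor receptor genes gave 5, 4, 4 and 4 rises with 5, 3, 3 and 4 falls. Lysosome genes gave 2, 1, 1 and 2 rises with 3, 3, 3 and 4 falls. With all 4 preparations the counts were as follows. Hepatocyte transcription factors gave 5 rises and 3 falls among 25. Creb3l3, a fasting-induced factor of lipid metabolism, rose by 0.56 ± 0.089, and Tbx3, a pericentral factor, fell by 0.72 ± 0.12. Apolipoprotein and lipoprotein genes gave 3 rises and 4 falls among 18, among them Mttp, which loads lipid onto lipoproteins and fell by 0.43 ± 0.072. Uptake transporters gave 5 rises and 1 fall among 13, and Slc27a2, which takes up fatty acids, rose by 0.42 ± 0.066. Their rises numbered 3, 2, 2 and 3 and their falls 0, 1, 0 and 0 with each preparation left out, in the same order. Wnt pathway and pericentral genes gave 0 rises and 5 falls among 24, with falls numbering 3, 3, 6 and 2 without male 1, male 2, female 1 and female 2. Oat and Tbx3 belong to it, and no other member passed in all 4 of those fits. Growth factor receptor signalling gave 7 rises and 9 falls among 39, and the ligand genes Pdgfc and Pdgfb rose by 0.96 ± 0.10 and 0.85 ± 0.13. Lysosome genes gave 3 rises and 8 falls among 42, with Ctss and Atp6v0d2 at the ends. Immediate early genes gave 1 rise and 4 falls among 32, of which Fosl1, a partner in the AP-1 factor, fell by 0.42 ± 0.076. Clock genes gave 3 rises and 4 falls among 21, and the hour of sampling is not given in the labels. Adherens and other junction genes gave 3 and 2 among 24, annexins and S100 genes 2 and 2 among 18, and the Notch and Hedgehog pathways 1 and 2 among 16. Integrins and laminin receptors gave 3 and 3 among 24, and secreted genes of the regenerating family 1 and 2 among 6.

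Among changes of at least 2-fold, the most even between preparations, by the SD of the change relative to its mean, were Msln, Car14, Krt23, Ptpn14 and Anxa13 for rises and Apol9a, Lox, Oat, Mt4 and Arhgdib for falls. Msln rose by 1.58, 1.48, 1.61 and 1.56 in the 4 preparations, and Car14, a membrane carbonic anhydrase, by 1.31, 1.23, 1.40 and 1.21. Arhgdib, known from blood cells, changed by -1.81, -2.41, -1.76 and -1.83, from 8.16, 8.93, 9.72 and 9.40 to 6.35, 6.52, 7.96 and 7.57, so that it kept the order of the preparations while it fell.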

How the data were processed

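RNA was measured on 12 arrays, 4 preparations at 3 days. Per the submitters' processing notes the authors used RMA, Transcriptome Analysis Console 4.0 and Partek 7.0, and the deposited values are log2 levels per probe set. No other step is stated in the labels. Of 13081 probe sets, 1192 without a gene symbol were left out of the main fit, and 19 symbols had more than one probe set, of which the brightest by mean was kept.

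The change from day 1 to day 14 was fitted over all 12 arrays with limma 3.58.1 in R 4.3.3, with the preparation as a block, two-sided, with Benjamini-Hochberg adjustment. The pairing comes from the labels, by which each pool was sampled at each day. The deviations of same-pool arrays at days 1 and 14 from the mean of their sex and day correlated at 0.036 for males and 0.066 for females. With 2 pools of each sex this is 1 value per sex. The values are low, so within a sex the arrays themselves show little likeness of a pool between the days. On simulated data the fit recovered 53.7%, 91% and 98.5% of changes of 0.5, 1 and 2, with 6 false among 168 calls. The simulated noise was normal and independent, and no gene changed at day 7. Each change was the same in all preparations, and far fewer genes changed than passed here. These rates may therefore not hold for the measured data. Promoters were read from RefSeq tables on GRCm38.p6 and symbols matched exactly.

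Genes were named by rule: the 20 largest rises and falls that passed with one sign in all preparations, up to 3 each way per list, up to 15 gained and 15 lost, fixed hepatocyte markers, and the 5 most even changes each way. Predicted and clone-named genes were left out of the names. The comparison and the lists were chosen with earlier results of these data known. Alternatives were the fit without the block, with a change for each sex, on 8 arrays or with a trended spread, other scalings, other gene filters, and leaving out each preparation.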

Additional observations from a re-analysis of the deposited data

Results flagged for a closer look

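The change of Igf2 differed between male and female preparations by 3.47 on the log2 scale (male minus female). In 7 of the 184 genes named in the report, 1 of the 4 preparations stood apart from the other three by its gap relative to the range. Chance gives this for about 5% of genes, so these 7 may be chance. Arhgdib changed by -2.41 in male 2, against -1.76 to -1.83 in the others. Gbp3 changed by -0.45 in male 2, against -1.74 to -1.87. Haao changed by 0.45 in female 2, against 1.19 to 1.34, and Ppara by 0.97 in female 2, against 0.31 to 0.39. Anxa13 changed by 2.28 in female 2, against 2.67 to 2.72. Of the genes that did not pass, Gemin8 changed by 1.15 in female 2, against 0.060 to 0.24, and Cep128 by -1.05 in male 1, against -0.25 to -0.33.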

How the results depend on the processing

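Without the replicate block 900 genes rose and 806 fell, against 990 and 799 in the paired fit, and 1460 of the 1789 paired calls were kept. Among the lists, macrophage rises went from 13 to 3, complement rises from 9 to 4, and falls of G2 and mitosis genes from 11 to 25. That fit also gave each sex its own mean at each day. With the block kept and a change for each sex, these counts were 15, 9 and 23. With the block on the 8 arrays of days 1 and 14 alone, and so fewer arrays to estimate the spread, 490 rose and 331 fell. Leaving out 1 preparation gave 440 to 622 rises and 305 to 521 falls, and 98 to 155 falls of at least 2-fold, with the fewest in each case without male 2. Of the 184 genes named in the report, 20 lost their call without male 1, 31 without male 2, 20 without female 1 and 20 without female 2, 13 without the block and 25 on 8 arrays. Centring each array changed no call among them. Genes gained numbered 277 and genes lost 246 when only the mean of the 4 arrays had to cross the level of 4.79, and 45 to 57 and 38 to 51 with 1 preparation left out. Changes of genes that did not pass turned sign: Alb to -0.020 under a second quantile normalization, and with 1 preparation left out Lum ranged from -1.50 to 0.48, Clec4f from -0.27 to 0.067 and Serpina1a from -0.0024 to 0.052. Where the cause of a moved value is not given, the cause was not tested. Levels under 4.79 limit falls, and levels near 12.84 limit rises.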

Other observations

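Further runs of at least 4 measured neighbours called in one direction were found. The glutathione transferase genes Gstm7, Gstm6, Gstm3 and Gstm2 on chromosome 3 changed by 0.33 to 0.41. The fatty acid hydroxylase genes Cyp4a10, Cyp4a31 and Cyp4a32 with Cyp4b1 on chromosome 4 changed by 0.51 to 1.49. Copies in these families are close, and their probe sets may not tell them apart. Runs of unlike genes were Adm, Ampd3, Rnf141 and Lyve1 on chromosome 7, which changed by -1.84 to -0.23, and Dop1b, Morc3, Chaf1b and Cldn14 on chromosome 16, which changed by -0.55 to -0.51.

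Letters of 3 other motifs were searched for on both strands in the 250 bases before the start. GGAATG, the core bound by TEAD factors, lay in 12.9% of all 9644 genes with an entry, in 11% of the 127 that rose and in 22.4% of the 107 that fell at least 2-fold. TGA, any base and TCA, the core of AP-1 sites, lay in 6.03%, 9.45% and 12.1%. GGGA, any base and TTTCC, a form of the NF-kappa-B site, lay in 0.467% of all genes, in 3 of the 127 that rose and in none of the 107 that fell. These shares are descriptions of letters in one window.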
